A study of Bos taurus with 6 samples.

Results

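The genes described here are 10 members of the Notch pathway: the ligands JAG1 and JAG2, the receptors NOTCH1, NOTCH2 and NOTCH3, the glycosyltransferase LFNG, and the target genes HES1, HEY1, HEY2 and HEYL. They were chosen as a fixed list of gene symbols, all 10 were found among the 23704 genes named in the data, and all 10 were among the 14639 genes with enough counts to be tested. RNA was sequenced from pools of isolated bovine primordial follicles (PMF), in which flat pre-granulosa cells enclose an oocyte. There were 3 libraries of PMF after 16 h of culture (T16) and 3 libraries of PMF retrieved after collection (T0). Both groups were isolated mechanically. The study's methods describe ovarian cortex of Holstein Friesian dairy cows in the second year of life, and an hour in medium with insulin, transferrin, selenium and FSH between isolation and lysis, and the T0 libraries were taken to be the PMF of those methods. The culture of the T16 pools, and whether different animals gave the pools, are not given in the sources used here.

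Notch signalling works between neighbouring cells. A Jagged or Delta ligand on one cell binds a Notch receptor on the next, ADAM proteases and gamma-secretase then cut the receptor, and its intracellular part enters the nucleus and joins RBPJ and a MAML coactivator to switch on target genes. HES and HEY genes are the classic targets and encode repressors of transcription. In the mouse ovary, JAG1 of the oocyte and NOTCH2 of the pre-granulosa cells are the best known pair of primordial follicles, and the pathway is needed there for germ cell cysts to break down into follicles.

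The libraries held 22174653 to 36703016 estimated counts, and RNA of both follicle compartments was found in all 6. Some libraries stood apart in their cell type markers. The 15 oocyte markers together had 2110, 95.5 and 873 TPM (a transcript level corrected for transcript length and library depth) in T16 replicates 1, 2 and 3, against 573, 2370 and 3350 TPM in T0 replicates 1, 2 and 3, so T16 replicate 2 and T0 replicate 1 were poor in oocyte transcripts. The 13 granulosa markers had 951, 8720 and 2850 TPM at T16 and 9690, 4530 and 1640 TPM at T0, and much of this was KRT8. In T16 replicate 1, WNT6 had 0.0547 TPM and FOXL2 3.37 TPM. In T16 replicate 2, BMP15 had 0.533 TPM and DPPA3 0.0574 TPM, while KIT gave 39.5 TPM of the oocyte sum. In bulk samples, fewer cells of a type and less RNA per cell cannot be told apart. The fold changes below come from all 6 libraries, and values without both oocyte-poor libraries stand beside them for the 9 members that could then be tested.

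By edgeR's quasi-likelihood test with Benjamini-Hochberg adjustment, 0 of the 10 members passed an FDR of 0.05, where 0.041% of all genes tested did (0.0342% higher and 0.00683% lower at T16). At an unadjusted p below 0.05 there were 4 members, NOTCH1 and NOTCH2 with higher and NOTCH3 and HEY2 with lower values at T16, beside 13.8% of all genes (8.61% higher and 5.14% lower). DESeq2, the tool used in the study, called 2 members at the same FDR, NOTCH1 higher and HEY2 lower, where it called 7.02% of all genes (4.06% higher and 2.96% lower). In 1 member every T16 library lay above every T0 library, where 11.5% of all genes tested did so. In 3 members every T16 library lay below every T0 library, where 11.6% of all genes did so (23.1% for both directions together). NOTCH3 is 1 of these 3 and 1 of the 4 above. It had 7, 0 and 0 counts in the T16 libraries, so it passed the filter of 10 counts in 3 libraries only through T0. The median log2 fold change (T16 over T0) was -1.21 over the 10 members and -0.08 over all genes tested. Of the members, 3 had a positive and 7 a negative fold change, and all 4 target genes were among the 7.

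**Figure D1:**
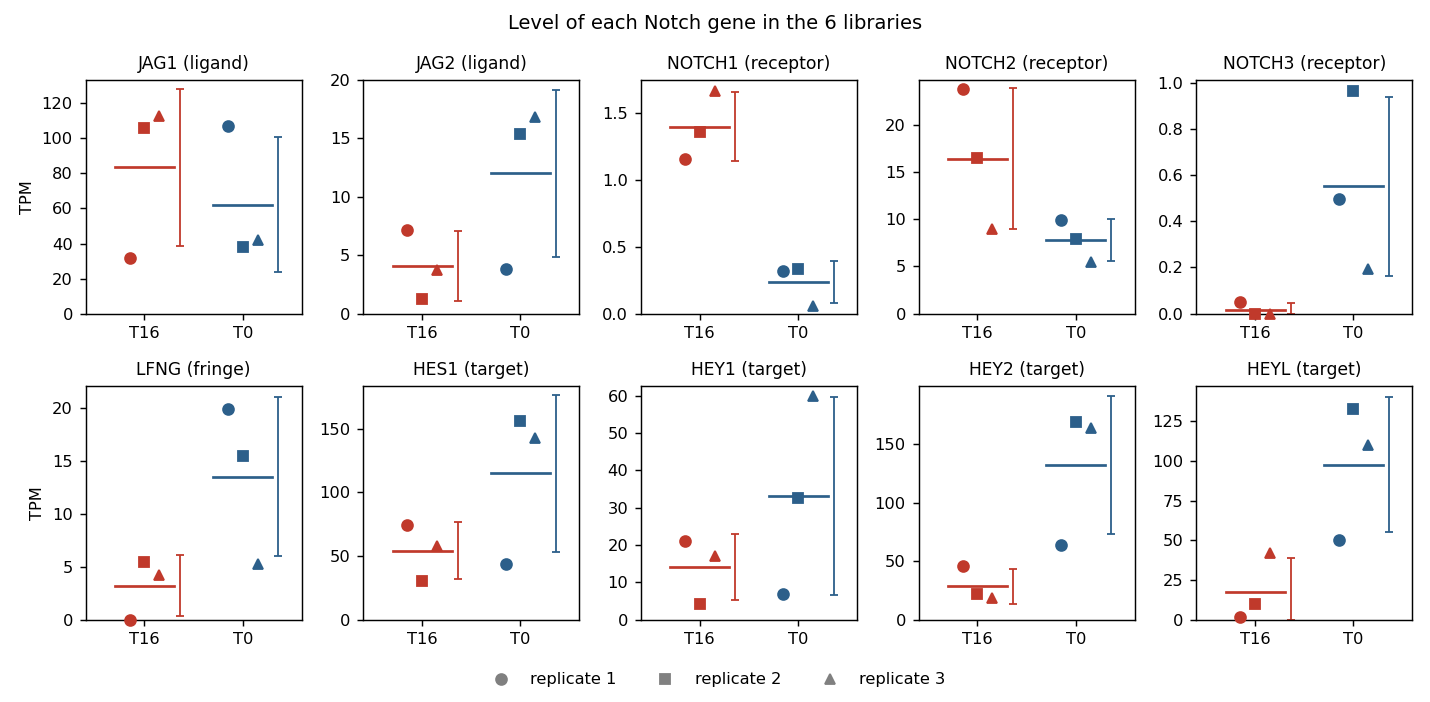
Levels (TPM, linear axes that start at 0) of the 10 Notch genes in the 3 T16 and 3 T0 libraries; symbols are single libraries, horizontal lines are means and vertical bars the SD, cut off at 0. NOTCH1 lies higher in all T16 libraries, and NOTCH3, HEY2 and HEYL lie lower, while the other 6 genes overlap.

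JAG1 was the main ligand of these follicles and was expressed in every library, at a level between the 68.2nd and the 88.3rd percentile of the genes tested. It had 31.8, 106 and 113 TPM in T16 replicates 1, 2 and 3, against 107, 38.0 and 41.9 TPM in T0 replicates 1, 2 and 3. The groups overlapped, with 1 library of T16 near the low T0 values and 1 library of T0 near the high T16 values. Its log2 fold change was 0.51 ± 0.69 (standard error; edgeR adjusted p = 0.818), and it was between 0.09 (T16 replicate 3 left out) and 1.32 (T0 replicate 1 left out). Without both oocyte-poor libraries it was 1.20 (adjusted p = 0.468). T16 replicate 2, T0 replicate 1 and T16 replicate 3 had the lowest oocyte marker sums (95.5, 573 and 873 TPM). Their JAG1 levels were 106, 107 and 113 TPM. T16 replicate 1, T0 replicate 2 and T0 replicate 3 had the highest oocyte marker sums (2110, 2370 and 3350 TPM). Their JAG1 levels were 31.8, 38.0 and 41.9 TPM. Within each of these sets, JAG1 rose slightly with the oocyte marker sum. The part of the oocyte share in the JAG1 level was not tested.

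JAG2, the second Jagged ligand, was less abundant than JAG1 in all 6 libraries. It had 7.20, 1.26 and 3.75 TPM in T16 replicates 1, 2 and 3, against 3.81, 15.4 and 16.8 TPM in T0 replicates 1, 2 and 3. T0 replicate 1 lay within the T16 range, and the other T0 libraries lay above all T16 libraries. JAG2 had -1.40 ± 0.76 as log2 fold change (edgeR adjusted p = 0.483), or -1.36 (adjusted p = 0.251) without both oocyte-poor libraries. JAG1 made up 81.6%, 98.8% and 96.8% of the summed JAG1 and JAG2 TPM at T16 and 96.6%, 71.2% and 71.4% at T0. This share did not separate the groups (mean 92.4% ± 9.43 at T16 and 79.7% ± 14.6 at T0, SD, n = 3 each; exact permutation test, two-sided, p = 0.2, Benjamini-Hochberg adjusted p = 0.3 over 3 such shares, where 3 libraries against 3 cannot go below 0.1 unadjusted).

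The JAG2 reads came from 2 transcript models that differ by little in length. The longer one, of 4497 bases, held 100%, 100% and 11.3% of JAG2 TPM in T16 replicates 1, 2 and 3 and 100%, 91.6% and 84.5% in T0 replicates 1, 2 and 3. T16 replicate 3 was thus the single library in which the shorter model of 4383 bases led, with 3.32 of the 3.75 TPM. That split rests on 46.2 estimated counts for the longer and 352.9 for the shorter model. Its uncertainty between such similar models was not assessed. JAG1 had 1 model in the data.

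NOTCH2 was the main receptor in every library. It made up 95.1%, 92.4% and 84.2% of the summed TPM of NOTCH1, NOTCH2 and NOTCH3 at T16 and 92.4%, 86.0% and 95.7% at T0, a share that did not differ beyond its spread (exact permutation test, two-sided, p = 0.8, adjusted p = 0.8). Its level was 23.8, 16.5 and 8.91 TPM in T16 replicates 1, 2 and 3, against 9.89, 7.95 and 5.44 TPM in T0 replicates 1, 2 and 3. Only the lowest T16 library and the highest T0 library overlapped. NOTCH2 had 1.11 ± 0.43 as log2 fold change (edgeR adjusted p = 0.31, DESeq2 adjusted p = 0.19), and 1.46 (edgeR adjusted p = 0.246) without both oocyte-poor libraries. A second NOTCH2 model of 10830 bases was assigned 509 counts in T16 replicate 1 and 359.1 counts in T16 replicate 3, and 0 counts in T16 replicate 2 and in all T0 libraries. The longer model of 10912 bases held the rest.

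NOTCH1, a receptor used in many tissues, had a low level, with T16 and T0 libraries that did not overlap. It had 1.16, 1.36 and 1.67 TPM in T16 replicates 1, 2 and 3, against 0.323, 0.332 and 0.0537 TPM in T0 replicates 1, 2 and 3. The T16 values were close to each other, with the highest 1.44 times the lowest. These levels came from 767 counts over the T16 libraries and 120 counts over the T0 libraries, of which 8 were in T0 replicate 3. NOTCH1 had 2.66 ± 0.91 as log2 fold change (edgeR adjusted p = 0.255), and DESeq2 called NOTCH1 higher (log2 fold change 2.63, adjusted p = 0.0371). With 1 library left out, the edgeR value was between 2.16 (without T0 replicate 3) and 3.07 (without T0 replicate 1), and it was 3.13 (adjusted p = 0.277) without both oocyte-poor libraries. Over 13 alternatives that could be computed, the adjusted p was 0.0371 to 0.665. NOTCH1 took 4.66%, 7.60% and 15.8% of receptor TPM at T16 and 3.02%, 3.59% and 0.944% at T0, a share described after the values were seen.

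NOTCH3, known as the Notch receptor of vascular smooth muscle and pericytes, was close to absent at T16. It had 7 counts in T16 replicate 1 and 0 counts in T16 replicates 2 and 3, against 65, 153 and 23 counts in T0 replicates 1, 2 and 3. A count of 0 allows up to 3 counts for counting error only, and the T0 levels were already low, at 0.496, 0.964 and 0.193 TPM. The ratio of CPM (counts scaled to library size) of T16 over T0 was 0.0253 (exact 95% interval 0.0101 to 0.0529, which covers counting error only). The fitted log2 fold change of -4.93 ± 1.82 rests on these few counts (edgeR adjusted p = 0.287, DESeq2 adjusted p = 0.0764). With any 1 of the T0 libraries left out, NOTCH3 no longer passed the count filter.

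The 12 smooth muscle and pericyte markers had lower sums at T16 on the whole, with 1 overlap between the groups. Their summed TPM was 52.8, 143 and 81.1 in T16 replicates 1, 2 and 3, against 465, 370 and 130 in T0 replicates 1, 2 and 3. MYH11, the smooth muscle myosin, had 0, 9.94 and 0.998 TPM at T16 and 40.2, 119 and 54.3 TPM at T0. Of the 12 markers, 2, 1 and 0 were at 0 in T16 replicates 1, 2 and 3, and 0, 0 and 3 in T0 replicates 1, 2 and 3. Of the 10 that could be tested, 2 had a positive and 8 a negative log2 fold change (median -1.09), and neither edgeR nor DESeq2 called any (1 lower at an unadjusted p below 0.05). The count sums of RGS5, MCAM, PDGFRB and CSPG4, pericyte markers, went both ways and are not scaled to library size. RGS5 had 5 counts over T16 and 40 over T0, and MCAM 717 over T16 and 814 over T0. PDGFRB had 785 over T16 and 523 over T0, and CSPG4 1296 over T16 and 282 over T0. In TPM the groups overlapped for each of these genes. CSPG4 had 0.541, 9.73 and 0.429 TPM in T16 replicates 1, 2 and 3, against 1.06, 0.917 and 0 TPM at T0. PDGFRB was highest in T0 replicate 1 (5.41 TPM). No direction is read from these sums. The part of smooth muscle cells and pericytes in the NOTCH3 values was not tested. NOTCH4, the receptor known from endothelium, had 28, 0 and 0 counts at T16 and 57, 121 and 0 counts at T0. The 12 endothelium markers summed to 34.1, 53.8 and 34.9 TPM at T16, with 6, 5 and 4 of them at 0, and to 395, 251 and 24.0 TPM at T0, with 1, 1 and 5 at 0. Most of the T0 sum in replicates 1 and 2 was CLDN5 (382 and 228 TPM), and the other 11 markers summed to 29.7, 22.5 and 18.0 TPM at T16 and 13.0, 23.3 and 10.5 TPM at T0. Of the 8 tested, 4 had a positive and 4 a negative log2 fold change (median -0.13), and ESAM had 17.8, 14.7 and 12.9 TPM at T16 and 0.935, 0.564 and 0.0793 TPM at T0. The part of endothelial RNA in the values of NOTCH4 and of HEY2, which has a role in arteries, was not tested.

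LFNG encodes a fringe enzyme that extends sugars on Notch receptors and so shifts their response between Delta and Jagged ligands, and mice without it have disturbed follicles. In T16 replicates 1, 2 and 3 LFNG had 0, 5.43 and 4.19 TPM, against 19.9, 15.4 and 5.26 TPM in T0 replicates 1, 2 and 3. The lowest T0 library lay just below the highest T16 library. With counting error alone, the 0 of T16 replicate 1 is compatible with a level of at most 0.116 CPM. LFNG had -1.96 ± 1.53 as log2 fold change (edgeR adjusted p = 0.654), and -1.89 without both oocyte-poor libraries.

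**Figure D2:**
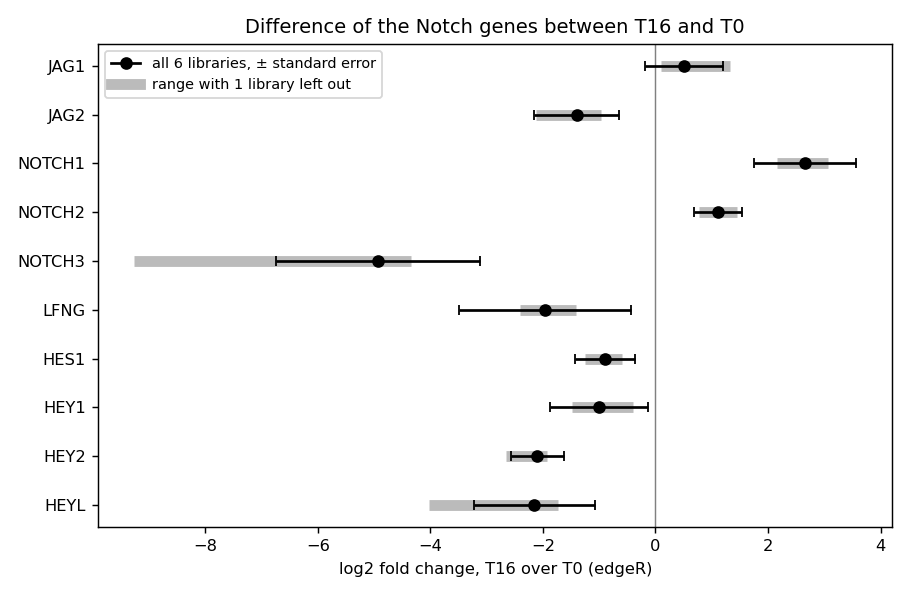
Log2 fold changes (T16 over T0) of the 10 Notch genes; points are edgeR values from all 6 libraries, thin bars their standard errors and grey bars the range with 1 library left out. NOTCH1, NOTCH2 and JAG1 lie to the right of 0 and the other 7 genes to the left, and the grey bars of NOTCH3 (-9.26 to -4.34, from 3 fits) and HEYL (-4.02 to -1.74) are the longest.

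The HES and HEY targets were the most abundant group of the members at T0. HES1, HEY1, HEY2 and HEYL together had 143, 66.2 and 136 TPM in T16 replicates 1, 2 and 3, against 165, 490 and 478 TPM in T0 replicates 1, 2 and 3. All T16 libraries lay below all T0 libraries, but T0 replicate 1 was close to them. The summed receptors had 25.0, 17.9 and 10.6 TPM at T16 and 10.7, 9.25 and 5.69 TPM at T0, and these groups overlapped by 1 pair of libraries (10.6 TPM at T16 and 10.7 TPM at T0). The 2 ligands together had 39.0, 107 and 116 TPM at T16 and 111, 53.4 and 58.7 TPM at T0.

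HEY2, a repressor best known from heart and arteries, had the smallest p of the members. Its level was 46.0, 21.7 and 18.7 TPM in T16 replicates 1, 2 and 3, against 64.3, 169 and 164 TPM in T0 replicates 1, 2 and 3. Every T16 library lay below every T0 library, and at T0 it was the first or second most abundant of the 10 members in all 3 libraries. HEY2 had -2.10 ± 0.47 as log2 fold change (edgeR adjusted p = 0.124), and DESeq2 called it lower (-2.17, adjusted p = 0.0024). With 1 library left out, the edgeR value stayed between -2.66 (without T16 replicate 1) and -1.92 (without T16 replicate 3), and it was -2.23 without both oocyte-poor libraries. Over 14 alternatives the adjusted p was 0.0024 to 0.519. Of the 3 HEY2 models, the one of 2439 bases held 94.2% to 100% of the TPM in every library.

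HEYL, a relative of HEY2 known from vascular smooth muscle, varied most of the targets between T16 libraries. It had 1.62, 9.92 and 41.9 TPM in T16 replicates 1, 2 and 3, against 50.4, 133 and 110 TPM in T0 replicates 1, 2 and 3. Every T16 library lay below every T0 library, yet the highest T16 value was 25.8 times the lowest. The log2 fold change was -2.15 ± 1.07 (edgeR adjusted p = 0.44, DESeq2 adjusted p = 0.173), -4.02 without T16 replicate 3 and -2.08 without both oocyte-poor libraries. Of the stroma genes, LUM, COL3A1, COL1A1, FBN1 and TCF21 were also lowest in T16 replicate 1 within their group. All of these but TCF21 rose from T16 replicate 1 to 2 to 3, as HEYL did. LUM had 0.0718, 188 and 390 TPM and COL3A1 0.743, 40.8 and 298 TPM in T16 replicates 1, 2 and 3. At T0, LUM had 265, 198 and 96.4 TPM and COL3A1 262, 69.3 and 184 TPM. Only DCN and PDGFRA were lowest in T16 replicate 3, where HEYL was highest. DCN had 152, 165 and 121 TPM at T16 and 199, 489 and 461 TPM at T0. PDGFRA had 112, 160 and 79.2 TPM at T16 and 132, 32.1 and 21.4 TPM at T0. The 8 stroma markers found had 275, 580 and 1030 TPM together at T16 and 975, 856 and 802 TPM at T0, and their part in the HEYL values was not tested.

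HES1, a repressor that keeps progenitor cells from differentiating in many tissues, was among the 4 most abundant members in every library. It had 74.4, 30.3 and 58.3 TPM in T16 replicates 1, 2 and 3, against 44.0, 156 and 143 TPM in T0 replicates 1, 2 and 3. T0 replicate 1 lay within the T16 range and the other T0 libraries were above it. HES1 had -0.90 ± 0.53 as log2 fold change (edgeR adjusted p = 0.523), -1.25 (adjusted p = 0.274) without T0 replicate 1 and -0.94 (adjusted p = 0.245) without both oocyte-poor libraries.

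HEY1, which acts with HEY2 in heart and vessel development in the mouse, was the least abundant HEY gene at T0. It had 21.0, 4.29 and 17.0 TPM in T16 replicates 1, 2 and 3, against 6.82, 32.7 and 59.8 TPM in T0 replicates 1, 2 and 3. In both groups the oocyte-poor library was the lowest. The log2 fold change was -1.01 ± 0.87 (edgeR adjusted p = 0.69), and it was between -1.48 without T0 replicate 1 and -0.40 without T0 replicate 3. Leaving out both oocyte-poor libraries gave -1.04.

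Within the targets, HES1 held a larger share in every T16 library than in any T0 library. HES1 made up 52.0%, 45.7% and 42.9% of the summed target TPM in T16 replicates 1, 2 and 3, against 26.6%, 31.9% and 30.0% in T0 replicates 1, 2 and 3. The groups did not overlap, and the T0 shares were close to each other although the T0 levels were not. The means were 46.9% ± 4.65 at T16 and 29.5% ± 2.68 at T0 (SD, n = 3 each), a difference of 17.4 percentage points (exact permutation test, two-sided, p = 0.1, the smallest that 3 libraries against 3 can give, adjusted p = 0.3). As shares of estimated counts, which favour long transcripts, the difference was 15.3 points. The HEY2 share was 13.7% to 32.8% at T16 and 34.4% to 38.9% at T0, and these ranges overlapped as shares of counts. The HEYL share was 1.13% to 30.8% at T16 and 23.1% to 30.4% at T0.

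**Figure D3:**
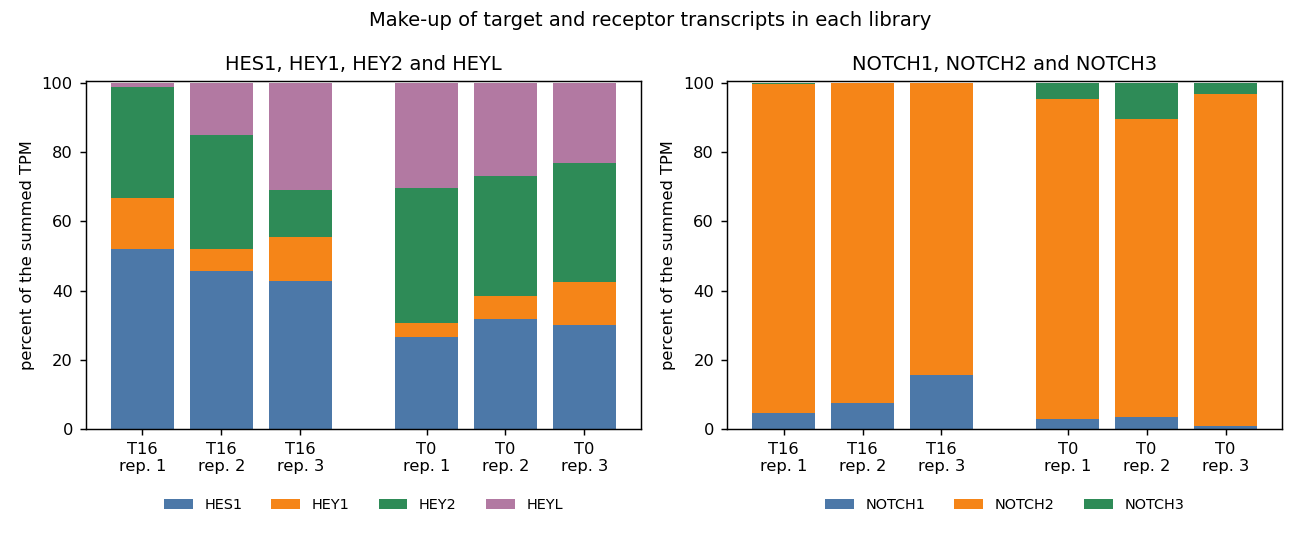
Share of each gene in the summed TPM (percent) of the 4 target genes and of the 3 receptors, with 1 bar per library. HES1 holds 42.9% to 52.0% of target TPM in the T16 libraries and 26.6% to 31.9% in the T0 libraries, and NOTCH2 holds at least 84.2% of receptor TPM in all 6.

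T0 replicate 1 stood apart from the other T0 libraries in several members. For JAG1, JAG2, HES1, HEY1, HEY2 and HEYL its value was far from those of T0 replicates 2 and 3, which lay close together for JAG1 (38.0 and 41.9 TPM), JAG2 (15.4 and 16.8 TPM), HES1 (156 and 143 TPM) and HEY2 (169 and 164 TPM). The study lists fewer pooled follicles for its PMF replicate 1 than for its PMF replicates 2 and 3. Whether its replicate numbers are those of the T0 libraries is not stated, and the part of pool size was not tested. T16 replicate 2, the other oocyte-poor library, had the lowest JAG2, HES1 and HEY1 values of its group. Without both libraries, edgeR called 0 members, and all 9 members that still passed the count filter had the same direction as before. Of the 13 granulosa markers, 4 had a positive and 9 a negative log2 fold change (median -0.46). In 3 of them every T16 library lay below every T0 library, beside 11.6% of all genes, and DESeq2 called 2 lower and edgeR 0 (3 lower at an unadjusted p below 0.05). FSHR, the FSH receptor, had 1.15, 3.46 and 0 TPM in T16 replicates 1, 2 and 3, against 10.8, 45.6 and 28.3 TPM in T0 replicates 1, 2 and 3. WNT6 had 0.0547, 15.1 and 1.54 TPM at T16 and 39.0, 155 and 74.6 TPM at T0. FOXL2, the last of these 3, had 3.37, 20.1 and 15.1 TPM at T16 and 38.5, 141 and 37.3 TPM at T0. The other granulosa markers overlapped between the groups. KITLG had 76.3, 77.2 and 53.0 TPM at T16 and 69.9, 30.8 and 40.5 TPM at T0. KRT18 had 197, 1340 and 474 TPM at T16 and 1280, 349 and 63.3 TPM at T0. The part of the follicle cells' makeup in the HES and HEY values was not tested.

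**Figure D4:**
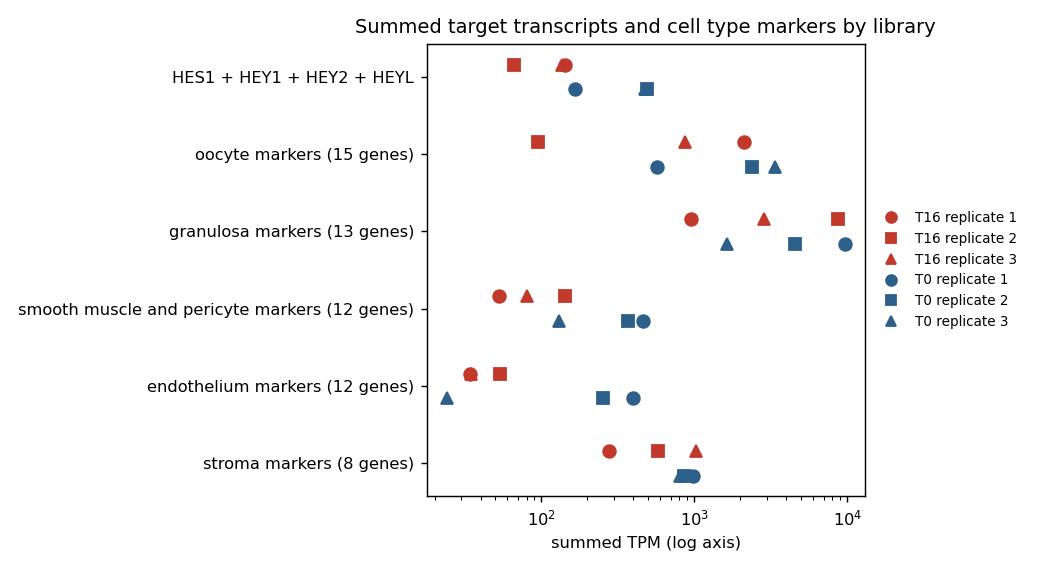
Summed TPM (log axis) of the 4 target genes and of 5 marker lists in each library; red symbols are T16, blue symbols T0, and the shape gives the replicate. The target sum is 66.2 to 143 TPM at T16 and 165 to 490 TPM at T0, and the oocyte sum is lowest in T16 replicate 2 (95.5 TPM) and T0 replicate 1 (573 TPM).

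The rest of the pathway was described from a list of 52 further genes, of which 50 were found and 45 could be tested. Another 2, DLK1 and DNER, were at 0 in every library. By edgeR 0 of the 45 passed the FDR (0.041% of all genes). At an unadjusted p below 0.05 there were 2 higher and 4 lower at T16, beside 8.61% and 5.14% of all genes (13.8% in either direction). DESeq2 called 1 higher and 2 lower, beside 4.06% and 2.96% of all genes (7.02% in either direction). In 3 of the 45 every T16 library lay above every T0 library (11.5% of all genes) and in 5 every T16 library lay below (11.6% of all genes). Over both directions together these counts are near or below the shares over all genes. With so few genes in either direction, no direction is read from these counts. DTX1, which is in each of the counts lower, passed the count filter only through its T0 libraries. The median log2 fold change of the 45 was -0.35, beside -0.08 over all genes tested.

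Of the Delta ligands, all were scarce beside JAG1. DLL1 averaged 1.46 TPM at T16 and 1.17 TPM at T0, DLL3 3.94 TPM at T16 and 7.97 TPM at T0, and DLL4 1.55 TPM at T16 and 4.37 TPM at T0, each with overlapping libraries. RFNG, the radical fringe, was the most abundant fringe gene in all 6 libraries. RFNG had 39.1, 68.0 and 35.5 TPM in T16 replicates 1, 2 and 3, against 127, 98.6 and 100 TPM in T0 replicates 1, 2 and 3. The groups did not overlap (log2 fold change -1.12 ± 0.36, edgeR adjusted p = 0.231, DESeq2 adjusted p = 0.0546). MFNG, the third fringe, had 0, 0 and 39 counts at T16 and 73, 85 and 0 counts at T0.

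The enzymes that cut the receptor were well expressed at both times. The sheddase ADAM10 averaged 38.8 ± 15.2 TPM at T16 and 31.4 ± 20.8 TPM at T0, and ADAM17 16.8 ± 4.54 TPM at T16 and 18.1 ± 10.4 TPM at T0 (SD, n = 3 each). Of the gamma-secretase subunits, nicastrin (NCSTN) was the most abundant, with 119 TPM at T16 and 191 TPM at T0. PSEN2, a catalytic presenilin, averaged 35.7 TPM at T16 and 34.3 TPM at T0. APH1A and PSENEN had 55.9 and 45.8 TPM at T16 and 91.7 and 73.3 TPM at T0, and APH1B 3.40 TPM at T16 and 4.55 TPM at T0. In all 11 genes of receptor processing the groups overlapped, and the lowest edgeR adjusted p among them was 0.619.

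RBPJ, the DNA-binding partner of the Notch intracellular domain, was expressed close to the level of JAG1 on average, at 89.5 TPM at T16 and 75.9 TPM at T0. It had 135, 83.3 and 50.6 TPM in T16 replicates 1, 2 and 3, against 38.6, 105 and 84.4 TPM in T0 replicates 1, 2 and 3, and its log2 fold change was 0.33 ± 0.42 (edgeR adjusted p = 0.808). MAML1 was the most abundant MAML coactivator in all 6 libraries and had narrow ranges, with 16.8 to 17.7 TPM at T16 and 10.5 to 14.0 TPM at T0 (log2 fold change 0.62 ± 0.34, edgeR adjusted p = 0.488). MAML3 had 0.011, 4.09 and 0.990 TPM at T16 and 9.22, 8.27 and 3.85 TPM at T0, and MAML2 had at most 0.885 TPM in any library. NUMB, an inhibitor of Notch, averaged 52.9 TPM at T16 and 41.4 TPM at T0 (edgeR adjusted p = 0.57).

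The list members that DESeq2 called are given here after their values were seen. MIB1 encodes the ubiquitin ligase that makes Notch ligands active in the signalling cell, and it had 79.3, 48.9 and 41.2 TPM in T16 replicates 1, 2 and 3, against 23.2, 9.80 and 8.97 TPM in T0 replicates 1, 2 and 3. The groups did not overlap (log2 fold change 2.03 ± 0.53, edgeR adjusted p = 0.15, DESeq2 adjusted p = 0.0091). HES5, another classic Notch target, was near 0 at T16, with 0.0509, 1.22 and 0 TPM at T16 and 4.22, 44.4 and 10.3 TPM at T0, and the groups did not overlap. It had 22 counts over T16 and 1298 counts over T0 (CPM ratio 0.0148, exact 95% interval 0.00922 to 0.0224 for counting error only; edgeR adjusted p = 0.248, DESeq2 adjusted p = 0.00615). T0 replicate 2 held 1037 of these T0 counts, and the HES5 log2 fold change of -5.46 was -4.17 without it and -9.30 without T16 replicate 2. DTX1 encodes a Deltex ubiquitin ligase that binds Notch and is itself a Notch target in lymphocytes. It had 2, 9 and 1 counts in T16 replicates 1, 2 and 3, against 40, 178 and 213 counts in T0 replicates 1, 2 and 3. DTX1 thus passed the count filter only through the T0 libraries, as did NOTCH3. The CPM ratio was 0.0242 (0.0124 to 0.0428, from 12 and 431 counts). Its log2 fold change of -4.94 ± 1.33 rests on these few counts (edgeR adjusted p = 0.159, DESeq2 adjusted p = 0.00176). HES4 was low, at 1.09, 0.304 and 0.281 TPM at T16 and 0.261, 2.95 and 3.10 TPM at T0.

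**Figure D5:**
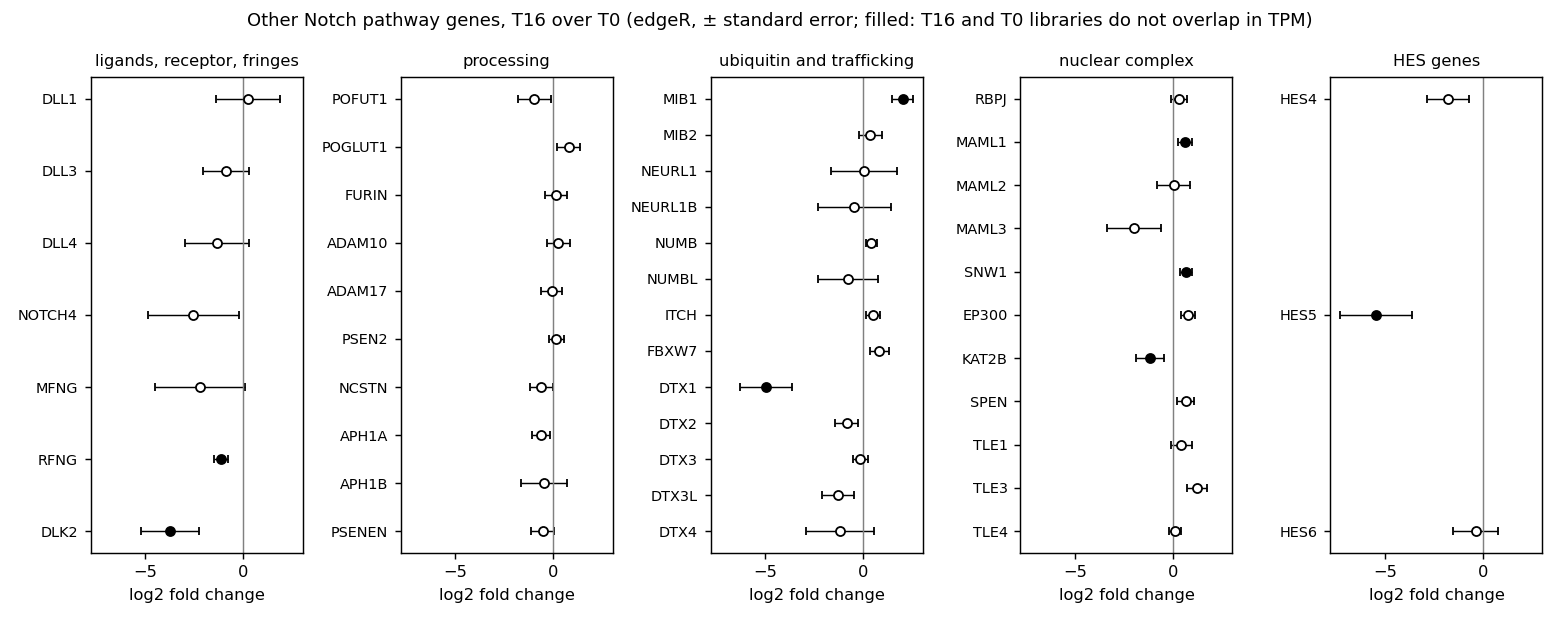
Log2 fold changes (T16 over T0, edgeR) of 44 of the other Notch pathway genes tested, grouped by role, with standard errors; filled points are genes whose T16 and T0 libraries do not overlap in TPM. MIB1 lies farthest to the right and HES5 and DTX1 farthest to the left, and the plotted genes of receptor processing lie between -0.95 and 0.82.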

How the data were processed

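Per the study's methods, adapters and overcalled bases were removed with Trim Galore and fastp, and Salmon assigned the reads to the bovine transcriptome of ARS-UCD1.3. The authors deposited estimated counts and TPM for each RefSeq transcript of each library, with no pooling of replicates. No source used here states a strand setting. Gene symbols were looked up by accession, without its version, in a table of RefSeq genes (ARS-UCD2.0), and none of its coordinates were used. Of 76123 transcripts 50205 matched, which held 89.1% to 90.3% of the counts, and the rest were left out. Both measures were added up per gene, and count sums were rounded.

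The comparison of T16 and T0 used edgeR 4.0.16 in R 4.3.3, with TMM scaling, the quasi-likelihood test and Benjamini-Hochberg adjustment over 14639 genes, each reaching 10 counts in 3 or more libraries. A standard error is the size of the log2 fold change over the square root of F. Alternatives were DESeq2 1.42.0 and the settings named in the closing section. Shares were compared by exact permutation in SciPy 1.17.1. The procedure was tested on simulated data. The naming rule takes all 10 members and, of 52 other pathway genes, the ligands DLL1, DLL3 and DLL4, NOTCH4, the fringes, both sheddases, the gamma-secretase subunits, RBPJ, the MAML genes, NUMB, NRARP and HES4. NRARP was not matched, and results for some genes of the list are not reported here. The members and lists were chosen with earlier results of these data known. P-values measure the spread between pools, which may be partly technical, and intervals and floors cover counting error only.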

Additional observations from a re-analysis of the deposited data

How the results depend on the processing

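No member reversed its direction under any of the 14 alternatives in which it could be fitted. NOTCH3 could be fitted in 8 of them, and JAG1, JAG2, NOTCH1 and NOTCH2 in 13. In the main fit no member passed the threshold, and edgeR called few genes under any setting, so staying on that side says little. Of the 130 values computed 128 stayed there, all those with DESeq2 size factors in edgeR and with transcript length offsets among them. The other 2 are from DESeq2, which called NOTCH1 (2.63) and HEY2 (-2.17), and 3 of the other pathway genes, where edgeR called 0 in either list under every setting. The counts over all genes moved more. edgeR called 5 genes higher and 1 lower, and DESeq2 594 and 433. The count lower was 4 without the count filter and 2 with at least 50 counts in 3 libraries. Matching accessions with version gave 2 higher and 0 lower, and it could not give JAG1, JAG2 or any of the receptors. With 1 library left out, 0 to 2 genes were called higher and 0 to 1 lower. Without both oocyte-poor libraries, a setting chosen after the data were seen, edgeR called 0 in either direction (2263 genes at an unadjusted p below 0.05; DESeq2 was not run there). The cause of these moves was not tested.

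With the replicate number as a block (replicate block), edgeR called 0 genes higher and 0 lower (1385 at an unadjusted p below 0.05). Same-numbered libraries did not deviate together: the correlations of their deviations from the group means were -0.445, -0.121 and -0.00469, across genes, which are not independent. T16 replicate 1 went best with T0 replicate 3 (0.398) and T16 replicate 2 with T0 replicate 1 (0.438). The former pair are the libraries richest in oocyte markers of their groups, and the latter pair are the oocyte-poor libraries. Whether the numbers pair the libraries by origin therefore cannot be told from these correlations. The share differences kept their direction as shares of estimated counts. Some members rest on low counts: NOTCH1 had 8 in T0 replicate 3, NOTCH3 had 7 over the T16 libraries and LFNG had 0 in T16 replicate 1.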
